A study of Mus musculus with 4 samples.

Results

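The genes described here encode the proteins of the cytosolic ribosome, the particle that translates messenger RNA. They were followed in splenic Esam dendritic cells (DC), the CD11b+ subclass of splenic conventional DC that carries the adhesion molecule Esam, from mice with or without Runx3. A member is a gene named Rpl or Rps, then a number with or without 1 letter, or Rplp0, Rplp1 or Rplp2, which has a probe set annotated with that symbol alone and a log2 value of at least 6.5, the study's background limit, on 1 or more arrays. By this rule 55 genes were members, of 9894 genes with such a probe set. They were 34 Rpl genes of the large subunit and 21 Rps genes of the small subunit. Where a gene had several probe sets, the brightest one stood for it.

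The study compared 2 groups of 2 arrays, each from DC of 1 mouse aged 6 weeks and labelled male. The wt mice carried intact Runx3 in DC (DCRunx3 +/+). In the cKO mice (DCRunx3 -/-), floxed Runx3 was deleted by a Cre recombinase that the CD11c promoter drives, so deletion was aimed at cells with an active CD11c promoter. The mice came as 2 pairs of littermates with 1 wt and 1 cKO mouse in each, and the cells were sorted by flow cytometry as CD11c+ MHCII+ cells with gates on Esam, CD4 and CD8. The comparison asked which genes respond to the loss of Runx3, a transcription factor of the DC lineage.

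Ribosomal proteins are made in near-equal amounts, and the large and the small subunit are assembled from them in the nucleolus around ribosomal RNA. Their mRNAs are among the most abundant of a mammalian cell and mostly begin with a C and a run of pyrimidines, the 5' terminal oligopyrimidine or TOP motif. Through this motif the kinase mTOR and the RNA-binding protein Larp1 set how well they are translated, a step that an array of total RNA does not read. Myc raises the transcription of many of them.

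The start sites of members are shown because the TOP motif is what these mRNAs share, and because the members below differed in how they varied between the arrays. Each line gives 40 bases before and 20 bases from the annotated start on the strand of the gene, from the RefSeq promoter table (GRCm38.p6). A run begins with a C, goes on with at least 4 C or T and begins within 20 bases of the start. Capitals mark the longest such run, and shorter ones stay in lower case.
Rps6, chr4:86857348-86857407, minus strand: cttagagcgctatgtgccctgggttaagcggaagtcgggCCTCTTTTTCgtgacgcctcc
Rpl28, chr7:4792925-4792984, plus strand: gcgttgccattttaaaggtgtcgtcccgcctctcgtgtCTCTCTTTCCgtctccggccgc
Rpl38, chr11:114668540-114668599, plus strand: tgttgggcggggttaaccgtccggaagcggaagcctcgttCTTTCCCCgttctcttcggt
Rps12, chr10:23787190-23787249, minus strand: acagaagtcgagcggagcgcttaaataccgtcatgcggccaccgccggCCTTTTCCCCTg
Rpl24, chr16:55966235-55966294, plus strand: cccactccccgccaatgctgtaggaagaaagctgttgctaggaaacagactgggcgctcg
Rps4x, chrX:102189372-102189431, minus strand: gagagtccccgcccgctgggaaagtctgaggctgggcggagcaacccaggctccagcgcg
In Rps6, Rpl28 and Rpl38 the run lay over the annotated start, and in Rps12 it began at base 9 after it. In Rpl24 and Rps4x no such run was found in the window, which says nothing about starts that lie elsewhere.

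The table held 51 promoters of 43 members. Such a run was in 38 of the 51 (74.5%) and in 48.7% of all 32851 promoters of the table. Over the whole window, 250 bases before and 50 bases after the start, and on both strands, the Ets motif CCGGAA was in 45.1% of the members' promoters and in 14.9% of all. The Runx motif TGTGGT was in 7.8% of the members' promoters (4 of 51) and in 16.8% of all. TATAAA was in 11.8% against 13.6%, the E-box CACGTG that Myc can bind in 13.7% against 7.2%, CCAAT in 29.4% against 37.4%, and the YY1 motif AAGATGG in 7.8% against 6.3%. CTTTCC, read on the gene's strand within 20 bases of the start, was in 7.8% against 1.9%. These shares describe letters in the windows and carry no test.

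Some facts of the arrays bear on every result. Array medians lay between 6.58 and 6.62, and 18889 of 35399 probe sets reached 6.5 on 1 or more arrays and were tested. The Runx3 probe set did not separate the groups (11.37 and 11.51 in wt, 11.47 and 11.45 in cKO). The sources used here do not say whether it covers the deleted part. By Western blot, the paper reports no Runx3 protein in CD4+ DC of mice with this CD11c-driven deletion. Both arrays of litter 1 had Xist at 12.75 and 12.78 and the Y-linked Kdm5d at 5.27 and 5.19. Both arrays of litter 2 had Xist at 5.15 and 5.19 and Kdm5d at 9.84 and 9.89, so litter 1 went against its label of male, and values within each litter are given below. The 11 DC markers listed were all tested, with Itgax at 12.99 to 13.12 and H2-Ab1 at 13.68 to 13.73. Esam lay lower, at 10.10 to 10.64, as did Zbtb46, at 9.21 to 9.70. By sign 7 of the 11 were higher and 4 lower in cKO. Only Itgam passed the study's thresholds, with 10.49 and 10.67 in wt and 11.31 and 11.35 in cKO. The T cell, neutrophil and erythroid markers that had a probe set (4 of 6, 5 of 5 and 1 of 4 listed) were below 6.5 on every array.

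Ribosomal protein genes differed little between the genotypes. The median difference of the 55 members, cKO minus wt, was -0.0017 on the log2 scale, beside -0.020 over all tested probe sets. By sign 26 members were higher and 29 lower in cKO, and 40 of 55 (72.7%) lay within 0.1 of no difference, against 46.3% of all tested probe sets. The median size of the difference was 0.056 for the members and 0.11 for all. Probe sets this bright vary little in general: the 1197 tested probe sets with a mean of at least 12 had a median size of 0.049, and the 34 members at that level 0.056.

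No member passed an adjusted p of 0.05 in limma, where 0.0% of all tested probe sets did, and the lowest adjusted p of a member was 0.475. At an unadjusted p under 0.05, 1 member was higher in cKO, where 4.57% of all tested probe sets were, and 1 was lower, where 4.81% were. No member passed the study's thresholds, a change of at least 1.5-fold with a p of at most 0.05 in the one-way test, which 0.9% of tested probe sets passed upward and 0.514% downward. The one-way p was at most 0.05 in 3 of 55 members and in 1556 of the 18889 tested probe sets. The 3 members were Rps4l, Rpl34 and Rps3, each with a difference of less than 1.5-fold. In 6 members (Rps4l, Rpl28, Rpl34, Rpl10, Rpl7a and Rpl10a) both cKO arrays lay above both wt arrays, and in 6 (Rpl22, Rpl7, Rpl5, Rpl4, Rps3 and Rps20) they lay below. Over all tested probe sets these shares were 16.4% and 23.7%, so members had their groups apart no more often than other probe sets. The one-way p-values measure the spread between 2 mice a group. The limma p-values also draw on a spread shared over all tested probe sets.

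The intervals show how much change these 4 arrays leave room for. The 95% interval of the difference lay wholly within 1.5-fold either way for 49 of 55 members and within 2-fold for 54. The exception at 2-fold was Rpl24, with an interval from -1.14 to 0.52. The median interval reached 0.26 to each side, so a smaller change could not be told from 0 in the median member. These widths rest in part on the spread that limma shares over probe sets. With limma-trend the SE was 0.0485 for Rpl10, in place of 0.0866, and 0.139 for Rps4l, in place of 0.082.

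**Figure D1:**
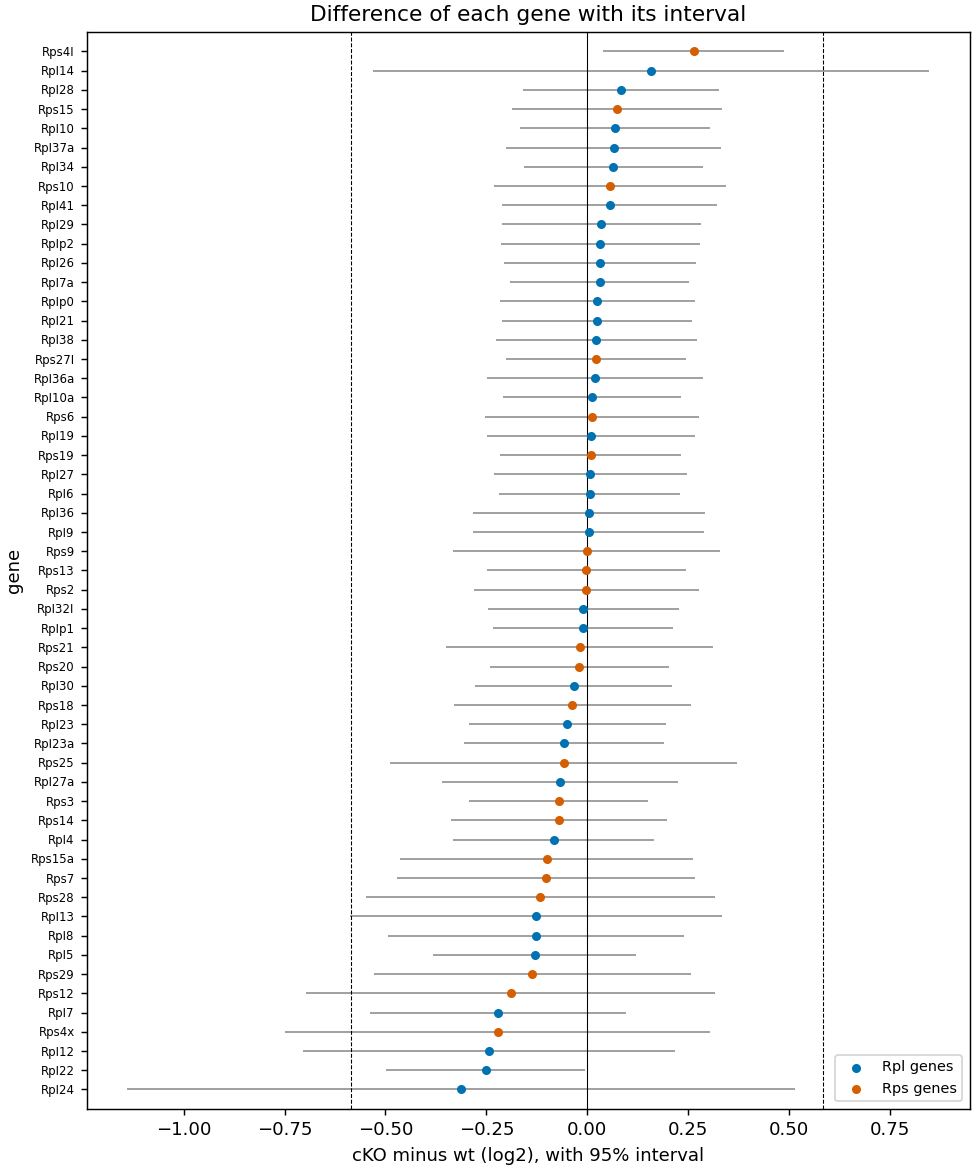
The horizontal axis is the difference, cKO minus wt, on the log2 scale, for each of the 55 genes (rows, ordered by the difference); points are the limma estimates, coloured by subunit, bars the 95% intervals, and dashed lines mark a change of 1.5-fold. The points run from -0.31 for Rpl24 to 0.26 for Rps4l, and every interval but those of Rps4l and Rpl22 includes 0.

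The difference was near 0 in both subunits. The 34 large subunit members had a median of 0.0072, with 20 higher and 14 lower, and the 21 small subunit members a median of -0.019, with 6 higher and 15 lower. All 11 members with a mean of at least 13 were higher in cKO by sign, by 0.0041 to 0.084, as were 67.5% of the 338 tested probe sets at that level. With arrays centred on their medians 7 of the 11 were higher (not Rps6, Rpl9, Rpl19 and Rpl10a), and after quantile normalization 5 (not Rpl21 and Rplp0 either), so the count depends on the scaling. Of the 23 members from 12 to 13, 17 were lower.

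**Figure D2:**
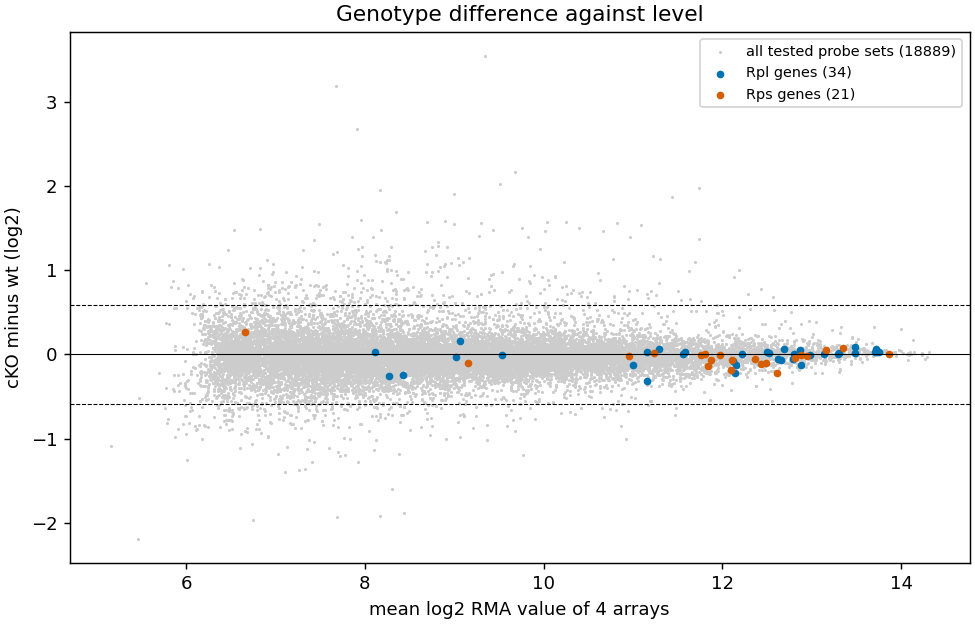
The horizontal axis is the mean log2 RMA value of the 4 arrays and the vertical axis the difference, cKO minus wt, on the log2 scale; grey points are all 18889 tested probe sets, blue points the 34 Rpl genes, orange points the 21 Rps genes, and dashed lines mark a change of 1.5-fold. No gene of either colour reaches a dashed line.

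The pattern that stood out lay between the 2 wt mice. The median value of the members was 12.19 in wt replicate 1, 12.49 in wt replicate 2, 12.33 in cKO replicate 1 and 12.34 in cKO replicate 2. The arrays of the cKO mice nearly coincided, and those of the wt mice lay on either side of them. The median size of the difference between the wt mice was 0.13, and that between the cKO mice 0.034, against 0.16 and 0.096 over all tested probe sets. At a mean of at least 12 it was 0.14 and 0.029 for the 34 members and 0.11 and 0.035 for the 1197 tested probe sets, which include those of the members, so the closeness of the cKO arrays was shared by bright probe sets in general.

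Wt replicate 2 was the highest array for 35 of 55 members, against 26.2% of all tested probe sets. Wt replicate 1 was the lowest array for 36, against 18.6%. Both held for 26 members and for 7.7% of tested probe sets. In 27 members both cKO arrays lay between the wt arrays, as they did in 23.2% of tested probe sets. The 1197 tested probe sets with a mean of at least 12 include those of the members, so their shares do not separate level from membership. Among them wt replicate 2 was highest in 32.8%, wt replicate 1 lowest in 32.2%, and both held in 17.9%. Both cKO arrays lay between the wt arrays in 36.5%. Of the 34 members at that level, the counts were 23 (67.6%), 21 (61.8%), 16 (47.1%) and 16 (47.1%). Wt replicate 2 exceeded the mean of the other 3 arrays in 45 members, with a median of 0.089, where the median over all tested probe sets was -0.017. The small subunit showed it in more of its genes, with wt replicate 2 highest in 17 of 21 and a median excess of 0.15, beside 18 of 34 and 0.060 in the large subunit. Over all 207 tested probe sets of members, some of which duplicate each other's values, wt replicate 2 was the highest in 159. In the same array the 3 B cell genes above background (Cd79a, Cd79b and Ms4a1) were the lowest of the 4, their mean being 9.32, 8.79, 9.58 and 9.38 in wt replicates 1 and 2 and cKO replicates 1 and 2, with Pax5 and Ebf1 below 6.5 on every array. The part of B cell RNA in the members' values was not tested.

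**Figure D3:**
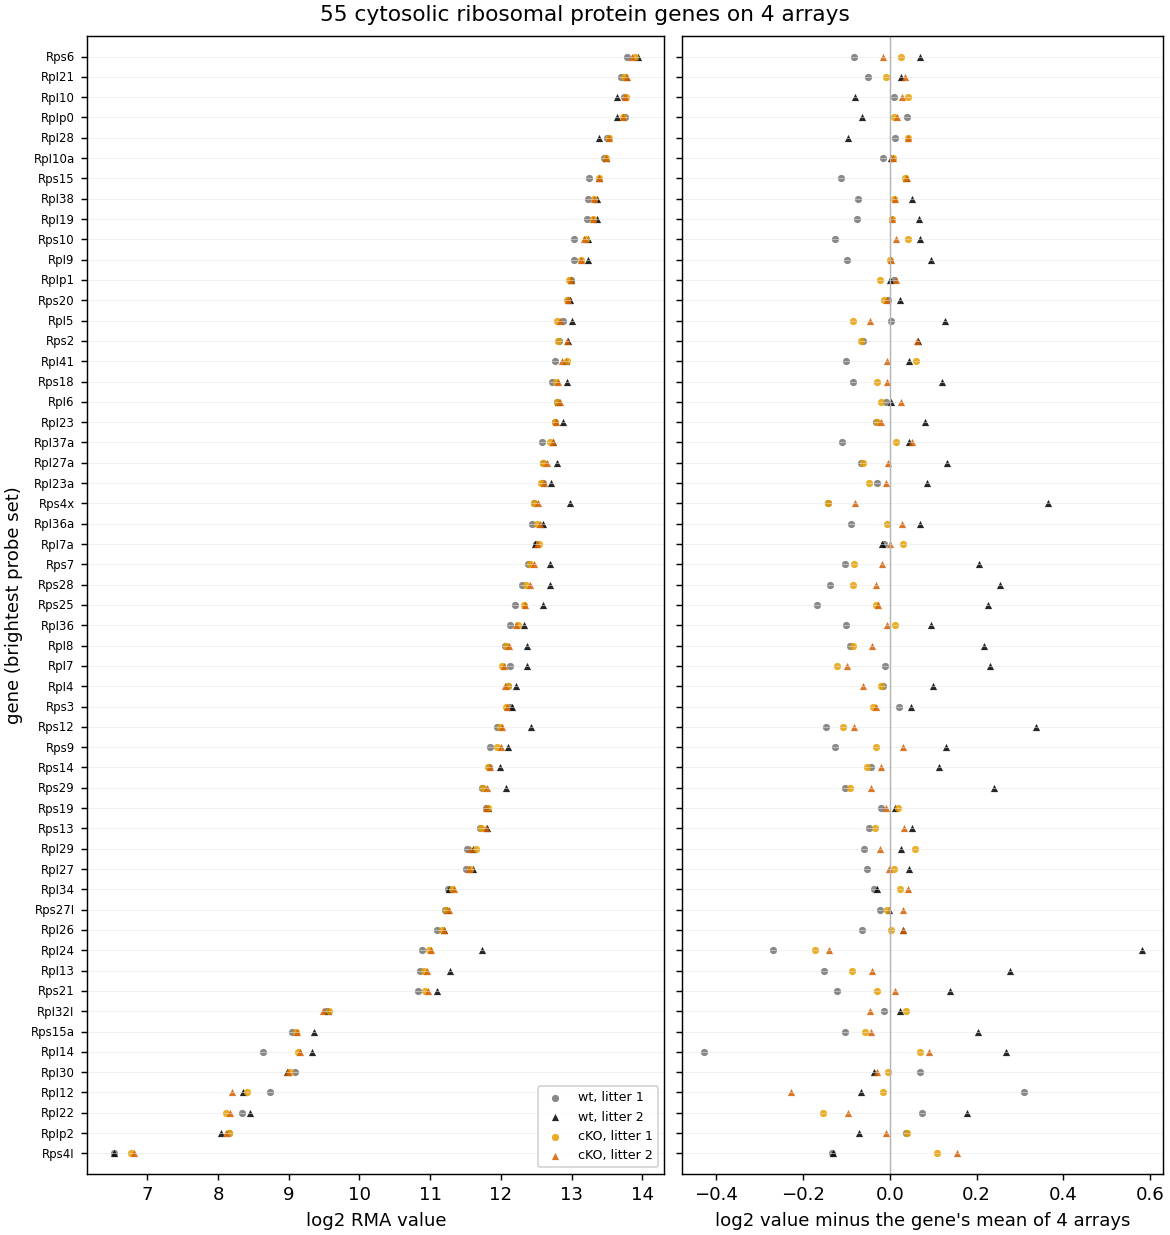
The rows are the 55 genes, ordered by mean level; the left horizontal axis is the log2 RMA value on each of the 4 arrays and the right one that value minus the mean of the gene. Circles are litter 1 and triangles litter 2, grey and black are wt, orange shades are cKO; black triangles (wt replicate 2) lie farthest right in 35 rows, and the orange symbols lie close together.

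Each wt mouse had 1 cKO littermate, and the direction differed between the litters. In litter 1 the median member was 0.040 higher in cKO, with 40 of 55 higher, where 38.2% of tested probe sets were higher. In litter 2 it was 0.069 lower in cKO, with 40 of 55 lower, where 48.1% of tested probe sets were lower. At a mean of at least 12, 23 of 34 members were higher in litter 1, where 53.1% of tested probe sets were, and 24 were lower in litter 2, where 44.1% were. Only 21 members had the same sign in both litters. Across the 55 members the differences of the 2 litters had a Pearson correlation of 0.12, and across all tested probe sets 0.31. Members share their arrays, and these correlations describe the arrays used here.

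The gene with the widest range was Rpl24, which encodes a large subunit protein at the face that meets the small subunit. Its values were 10.89 and 11.74 in wt replicates 1 and 2 and 10.98 and 11.02 in cKO replicates 1 and 2. Wt replicate 2 alone stood apart, the other wt array lay below both cKO arrays, and the groups overlapped. The difference was -0.31 (SE 0.30 by limma, adjusted p = 0.827). Without wt replicate 1 it was -0.74 and past the study's thresholds, the 1 such call among the members over the 4 ways to leave out an array, and without wt replicate 2 it was 0.11. Its window above held no pyrimidine run at the annotated start.

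In the X-linked Rps4x, a small subunit protein near the mRNA entry, wt replicate 2 alone stood apart as well. Its values were 12.46 and 12.97 in wt, and 12.46 and 12.53 in cKO. The difference was -0.22 (SE 0.19 by limma, adjusted p = 0.805), and it was 0.032 without wt replicate 2. Rps12, whose run of pyrimidines is shown above, gave 11.94 and 12.43 in wt and 11.98 and 12.01 in cKO.

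In the other X-linked members wt replicate 2 did not stand apart in this way. Rpl10, which is needed at the last step of large subunit maturation, had 13.73 and 13.64 in wt and 13.76 and 13.75 in cKO, so wt replicate 2 was its lowest array. Rpl36a had 12.43 and 12.59 in wt and 12.51 and 12.55 in cKO, so both cKO arrays lay between the wt arrays. Between litters, which differed in Xist, litter 2 minus litter 1 was -0.051 for Rpl10, 0.096 for Rpl36a and 0.28 for Rps4x, none past the threshold (limma, adjusted p = 0.969, 0.915 and 0.890).

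The nearest to a change upward was Rps4l, a copy of Rps4x that RefSeq lists as a transcribed pseudogene. Its values were 6.52 and 6.53 in wt and 6.77 and 6.81 in cKO. Both cKO arrays lay above both wt arrays, and the values of each group lay close together, near the background limit. The difference was 0.26 (SE 0.082 by limma, unadjusted p = 0.0305, adjusted p = 0.475). It was 0.24 within litter 1 and 0.29 within litter 2. A second probe set of Rps4l, of nearly the same level (6.54 and 6.58 in wt, 6.59 and 6.67 in cKO), differed by only 0.067 with an unadjusted p of 0.482 in limma, and the mean of both by 0.17.

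The nearest to a change downward was Rpl22, a large subunit protein whose loss impairs lymphocyte development. Its values were 8.34 and 8.45 in wt and 8.12 and 8.17 in cKO. Both cKO arrays lay below both wt arrays, by 0.23 in litter 1 and 0.27 in litter 2. The difference was -0.25 (SE 0.091 by limma, unadjusted p = 0.0477, adjusted p = 0.525). RefSeq gives it 2 starts. At 1 of them a pyrimidine run of 5 bases begins within 20 bases before the start, and at the other the run lies farther upstream.

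Rpl5, which with Rpl11 carries 5S ribosomal RNA into the large subunit and can hold back the p53 ligase Mdm2, read 12.88 and 13.01 in wt and 12.80 and 12.83 in cKO. Its groups did not overlap, with a difference of -0.13 and an adjusted p of 0.761 in limma. Rpl7 read 12.13 and 12.37 in wt and 12.02 and 12.04 in cKO, again without overlap, with a difference of -0.22 (limma, adjusted p = 0.670). Rpl12, a protein at the base of the stalk, read 8.73 and 8.36 in wt and 8.41 and 8.20 in cKO, with overlap and a difference of -0.24 (limma, adjusted p = 0.755). Leaving out an array moved all 3 values: Rpl5 ranged from -0.19 to -0.068, Rpl7 from -0.34 to -0.099, and Rpl12 from -0.43 without wt replicate 2 to -0.056 without wt replicate 1.

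The stalk of the large subunit, on which the elongation factors act, is built of Rplp0, Rplp1 and Rplp2. Rplp0 read 13.75 and 13.65 in wt and 13.72 and 13.73 in cKO. Rplp1 read 12.99 and 12.98 in wt and 12.96 and 12.996 in cKO. Rplp2 read 8.15 and 8.04 in wt and 8.16 and 8.11 in cKO. All 3 had overlapping groups and differences of at most 0.033 in size.

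Rps6, the small subunit protein that S6 kinases phosphorylate under mTOR, read 13.79 and 13.94 in wt and 13.90 and 13.86 in cKO, which differ by 0.012 (SE 0.097). Both cKO values lay between the wt values. Rpl21 read 13.70 and 13.77 in wt and 13.74 and 13.78 in cKO. Rpl28 read 13.49 and 13.38 in wt and 13.52 and 13.52 in cKO, so its groups did not overlap, at a difference of 0.084 (limma, adjusted p = 0.842). Rpl34, with a difference of 0.065, and Rpl10, with 0.070, also had both cKO arrays above both wt arrays. Rps15 differed by 0.074 with overlap.

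Members tied to disease or to the translation of particular mRNAs gave small differences too. Rps19 and Rps14, whose loss of 1 copy is linked to failures of red cell formation in people, read 11.78 and 11.81 in wt with 11.82 and 11.79 in cKO for Rps19, and 11.83 and 11.99 in wt with 11.82 and 11.85 in cKO for Rps14. Rpl38, which is required for translation of a subset of Hox mRNAs in the embryo, read 13.23 and 13.35 in wt and 13.31 and 13.32 in cKO. Rps25, used by some viral RNAs to enter the ribosome, read 12.19 and 12.59 in wt and 12.33 and 12.34 in cKO. The groups overlapped in all 4. Rps27l, a p53-responsive copy of Rps27, differed by 0.022.

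Rpl14 had the second-widest range. It read 8.64 and 9.34 in wt and 9.14 and 9.16 in cKO, so wt replicate 1 alone stood apart. The difference was 0.16 (SE 0.25 by limma, adjusted p = 0.906). Leaving out wt replicate 2 gave 0.51, and leaving out wt replicate 1 gave -0.19.

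Levels here are those of probe sets and give no order of abundance between genes. Of the 8 members with a mean below 10 (Rps4l, Rplp2, Rpl22, Rpl12, Rpl30, Rpl14, Rps15a and Rpl32l), 6 sat on a probe set annotated with 1 accession, and only 1 of the 47 brighter members did. The testis or muscle copies Rpl10l, Rpl39l and Rpl3l stayed below 6.5 on every array, at most 5.43, and were not tested. Ribosomal protein genes have many near-identical processed copies in the genome, so a probe set can read several of them. The 38 members with several tested probe sets (up to 14, for Rps12) allow a partial check. Some of these probe sets, as in Rps12, Rpl41, Rpl23a and Rpl27, had identical values on every array and are not separate measurements. Over the 38 members the level differed within a gene by a median of 0.56 and at most 3.04. Their difference, cKO minus wt, spread by a median of 0.050 and at most 0.26, and 8 of the 38 had probe sets of both signs.

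The rule leaves out part of the ribosome. Of the protein-coding genes in RefSeq that fit the names, 57 had a probe set of their own, and 16 were annotated only together with another symbol (Rpl3, Rpl11, Rps24 and Rps27 among them). The 233 probe sets with several symbols of which 1 fits the names had a median difference of 0.018, with 148 higher and 85 lower. Their groups did not overlap in 73 upward and 12 downward, beside the shares of 16.4% and 23.7% over all. Their median level was 12.74, and bright probe sets leaned upward too. Among the 1197 tested probe sets with a mean of at least 12, which include part of the 233, the counts were 250 upward and 158 downward. None of the 233 passed an adjusted p of 0.05 or the study's thresholds. In wt replicate 2 they were highest in 96 of 233.

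Ribosomal proteins named otherwise were tested for 4 of 10 listed genes. Rps3a1, a small subunit protein, read 10.36 and 10.95 in wt and 10.23 and 10.41 in cKO, a difference of -0.34 (limma, adjusted p = 0.750) that came to -0.040 when wt replicate 2 was left out and to -0.64 when wt replicate 1 was. Fau, whose product is cleaved to a ubiquitin-like part and a small subunit protein, read 12.73 and 12.77 in wt and 12.83 and 12.84 in cKO. Rpsa differed by -0.036 and Rpl7l1 by 0.012.

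Other genes of translation were described from lists. The elongation factors and other mRNAs with a TOP motif (22 of 24 tested) had a median difference of 0.0060, with 12 higher and 10 lower. Nap1l1, a histone chaperone, had the lowest p there, with 11.87 and 11.95 in wt and 11.59 and 11.71 in cKO (limma, adjusted p = 0.535). Eif3e, an initiation factor subunit on this list, read 11.48 and 11.69 in wt and 11.42 and 11.39 in cKO. Initiation and termination factors (26 of 31 tested) had a median of -0.059, with 5 higher and 21 lower, and Eif2s2, a subunit of the factor that brings the first tRNA, read 10.34 and 10.41 in wt and 10.16 and 10.03 in cKO (limma, adjusted p = 0.513). Eif5b, which helps to join the subunits, read 9.12 and 9.25 in wt and 8.99 and 8.93 in cKO. Neither list held a gene past an adjusted p of 0.05 or the study's thresholds. In the initiation and termination factors wt replicate 1 was the highest array for 16 of 26.

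Of the genes that control ribosomal protein mRNAs (22 of 24 tested), the median difference was -0.056 and 1 passed the study's thresholds. That gene was Myc, with 10.44 and 10.30 in wt and 9.23 and 9.11 in cKO, a difference of -1.20 (limma, adjusted p = 0.158). Rictor, a subunit of the second mTOR complex, read 10.83 and 10.85 in wt and 10.66 and 10.62 in cKO (limma, adjusted p = 0.579). Mtor read 9.78 and 9.77 in wt and 9.60 and 9.73 in cKO, Larp1 11.18 and 11.07 in wt and 11.05 and 11.07 in cKO, and Eif4ebp1, an mTOR substrate that restrains initiation, 8.65 and 8.31 in wt and 8.70 and 8.78 in cKO. In fold terms Myc was 2.29-fold lower in cKO, and the 95% interval of its log2 difference ran from -1.48 to -0.92. No relation between Myc and the members was tested.

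The proteins of the mitochondrial ribosome are encoded by another gene family. Its 77 tested genes had a median difference of -0.035, with 27 higher and 50 lower, and none passed an adjusted p of 0.05 or the study's thresholds. The lowest p-values were those of Mrps12, with 6.40 and 6.51 in wt and 6.25 and 6.13 in cKO, and Mrpl18, with 9.54 and 9.73 in wt and 9.29 and 9.42 in cKO (limma, adjusted p = 0.543 and 0.564). In this family wt replicate 1 was the highest array for 34 of 77 and wt replicate 2 for 25, and its litter medians were -0.097 and -0.023.

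Introns of ribosomal protein genes also carry small nucleolar RNAs, which guide the modification of ribosomal RNA. RefSeq places 18 of them inside 13 members, and 10 in 8 members were tested. Snord15b, inside Rps3, read 8.91 and 9.81 in wt and 8.89 and 8.88 in cKO, and Snord15a, also inside Rps3, read 7.37 and 7.99 in wt and 7.38 and 6.98 in cKO. Wt replicate 2 was the highest of the arrays in both and stood apart in Snord15b. Rps3 itself read 12.13 and 12.16 in wt and 12.07 and 12.08 in cKO. Over the 10 the median excess of wt replicate 2 was 0.24 and the median difference -0.13, and wt replicate 2 was highest in 6. Without wt replicate 2 the median difference turned to 0.082. Snora52, inside Rplp2, went the other way, with 12.28 and 12.21 in wt and 12.47 and 12.49 in cKO (limma, adjusted p = 0.536).

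**Figure D4:**
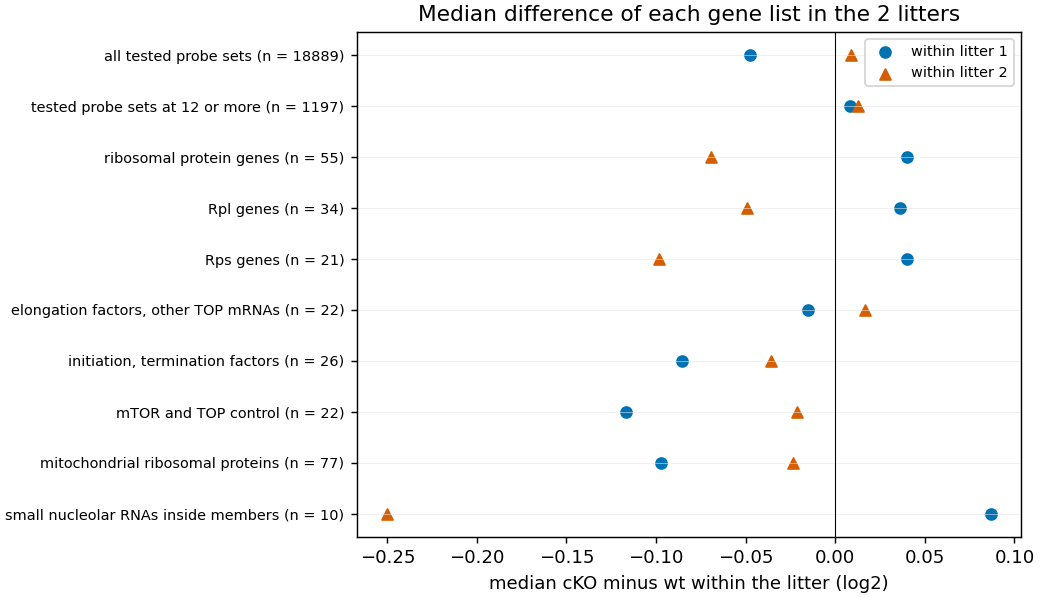
The horizontal axis is the median difference, cKO minus wt, on the log2 scale; circles are litter 1 and triangles litter 2, and each row is a list of genes or probe sets with the number tested. Ribosomal protein genes lie at 0.040 in litter 1 and -0.069 in litter 2, and the small nucleolar RNAs inside them at 0.087 and -0.25.

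The pyrimidine run at the start did not divide the members. The 35 members with such a run had a median excess of wt replicate 2 of 0.089, and the 8 without it 0.093. Their median differences, cKO minus wt, were -0.0014 and 0.0061.

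Markers of other cells lay apart between the genotypes. Of 8 cDC1 genes, 6 passed the study's thresholds, all higher in cKO, and the mean of the list was 9.17 and 9.04 in wt and 10.07 and 10.08 in cKO. Batf3 of this list went the other way, with 9.28 and 9.53 in wt and 9.12 and 9.11 in cKO. The 7 macrophage and monocyte genes tested had means of 10.17 and 10.44 in wt and 10.76 and 10.85 in cKO, with 1 past those thresholds. The 5 plasmacytoid DC genes had means of 7.71 and 7.72 in wt and 8.05 and 8.17 in cKO, with 4 higher by sign and 1, Bst2, lower. In sorted cells, fewer cells of a type and less RNA per cell cannot be told apart, and the part of cell mixture in the members' values was not tested.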

How the data were processed

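Total RNA of sorted splenic Esam DC was hybridized to 4 Affymetrix mouse arrays (2 wt, 2 cKO). The paper's methods name exon ST 1.0 arrays, whereas the probe annotation used here is that of the gene array. The deposited log2 values are the authors' RMA summaries with GC correction from Partek, and the submitters' processing notes name mm9; versions are not given in the sources used here. No depth applies, so the number of arrays limits the precision.

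Groups came from the sample titles. Probe sets with a log2 value of at least 6.5 on 1 or more arrays were tested in limma 3.58.1 (R 4.3.3) as two-sided cKO against wt differences, with p-values adjusted after Benjamini-Hochberg over the 18889 of them; the script was first tested on simulated data. The methods' one-way test and thresholds were applied to the same values. Same-numbered arrays are littermates per the labels, and their deviations from the group means had a correlation of 0.27. Genes named are the 5 with the lowest p in each direction, the 3 brightest, 3 dimmest and 3 widest-ranging, genes fixed by role, ribosomal proteins outside the names and the 2 lowest p of each list; Rps12, Rps3, Snord15b, the array-check genes, Mtor, Larp1, Eif4ebp1 and further members listed by their overlap were added after their values were seen. The members and lists were chosen with earlier results of these data known. Gene identifiers of all 55 members matched RefSeq (GRCm38.p6), and promoters were found for 43. Some ribosomal protein genes are not reported here.

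Alternatives were the litter as a block, limma-trend, the one-way test, centred or quantile-normalized arrays, other filters, other probe sets of a gene and each array left out.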

Additional observations from a re-analysis of the deposited data

Results flagged for a closer look

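The median difference of the 55 ribosomal protein genes, cKO minus wt on the log2 scale, was 0.040 within litter 1 and -0.069 within litter 2. It stood out because the litters pointed in opposite directions. The 34 large subunit members (0.036 and -0.049) and the 21 small subunit members (0.040 and -0.0985) also had opposite signs. So did all 207 tested probe sets of members (0.058 and -0.11) and the 34 members with a mean of at least 12 (0.031 and -0.071). The members below 10, from 10 to 12 and from 12 to 13 had opposite signs as well. Some other sets of ribosomal protein genes did not. Litters 1 and 2 gave 0.049 and 0.0029 in the 233 probe sets with several symbols. The 11 members with a mean of at least 13 gave 0.082 and 0.0021, and the 4 genes outside the names -0.021 and -0.024. With 1 wt and 1 cKO mouse in each litter the difference between the litters was not tested. The 2 litters also differed in Xist and Kdm5d, and the part of that difference was not tested.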

How the results depend on the processing

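Under every alternative run 0 members passed an adjusted p of 0.05 in limma, and the study's thresholds were passed by 0 members except without wt replicate 1 (range 0 to 1, Rpl24). With the litter as a replicate block the median difference stayed at -0.0017, and members at an unadjusted p under 0.05 went from 1 to 0 in each direction; limma-trend gave 0 and 0. The one-way test gave 2 higher, the mean or the dimmest probe set of a gene 0 higher, and quantile normalization 0 lower. Leaving out an array gave 0 to 1 higher and 0 to 9 lower, the 9 without wt replicate 1. Members whose groups did not overlap upward were 3 after quantile normalization and 9 to 38 with an array left out, the 38 without wt replicate 2, and downward 8 to 35, the 35 without wt replicate 1. Groups of 1 array overlap less often by construction, and that lone array was taken to vary like the other group. Shares over all tested probe sets were not counted with an array left out or after quantile normalization. Whether the members' counts under these settings exceed such shares was therefore not tested.

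With 1 array left out the median of all members ranged from -0.062 to 0.053, of the small subunit from -0.13 to 0.053, of elongation factors from -0.016 to 0.035, of initiation factors from -0.10 to -0.021, of the small nucleolar RNAs from -0.20 to 0.082, and of ribosomal proteins outside the names from -0.034 to 0.0099. The last was -0.026 with arrays centred on their medians and -0.0058 after quantile normalization, from -0.012. Of the 27 genes named by rule, centring turned the sign of 3, Rps6 (-0.0016), Rps19 (-0.0043) and Rpl7l1 (-0.0016), and quantile normalization of 3, Rps6 (-0.028), Rpl21 (-0.014) and Rplp0 (-0.020). Leaving out an array turned the sign of 15, whose ranges were -0.74 to 0.11 for Rpl24, -0.47 to 0.032 for Rps4x, -0.25 to 0.14 for Rps25, -0.19 to 0.51 for Rpl14, -0.15 to 0.0086 for Rps14, -0.13 to 0.060 for Rpsa, -0.065 to 0.088 for Rps6, -0.060 to 0.083 for Rpl7l1, -0.059 to 0.099 for Rpl36a, -0.039 to 0.085 for Rpl38, -0.028 to 0.0086 for Rplp1, -0.027 to 0.077 for Rplp0, -0.022 to 0.088 for Rplp2, -0.012 to 0.063 for Rpl21 and -0.0070 to 0.025 for Rps19. The other results kept their direction and their side of the threshold, or moved by less than the spread between replicates, under the alternatives run.

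With 2 mice a group, 2 residual degrees of freedom and a prior of 2.2 more, small shared shifts cannot be told from 0. Probe sets near the background limit, such as that of Rps4l, have the lowest signal.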
